A study of Homo sapiens with 6 samples.

Results

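Microtubules are hollow polymers of alpha-beta tubulin dimers, and vertebrates carry several genes, or isotypes, for each of the 2 chains. Cells of most kinds build them from a few ubiquitous isotypes, while neurons add isotypes such as TUBB3 together with proteins that stabilise or bundle the lattice in axons and dendrites, among them MAPT (tau), MAP2 and MAP1B. At the tip of a growing axon, the growth cone, proteins of the DPYSL family (also called CRMPs) bind tubulin dimers, and GAP43 and BASP1 sit on the inner face of the membrane.

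The genes described here are 45 listed tubulin, microtubule-associated, stathmin, DPYSL and growth cone genes out of 47470 in the count files, followed in HEK293T cells with and without valproic acid (VPA). All 45 were found by symbol. From general knowledge of where each is expressed, 23 were classed as neuronal, 18 as ubiquitous and 4 as restricted to other tissues. The classes were set by hand with earlier results of these data known, so comparisons between classes below are not blind. HEK293T is a line of human embryonic kidney cells that carries the large T antigen of SV40. VPA is a short branched fatty acid used as an antiepileptic drug that inhibits histone deacetylases. The study sequenced strand-specific mRNA libraries from 3 samples of untreated cells and 3 samples of cells kept for 1 day in 1 mM VPA, all of 1 line, labelled as wild type. Nothing in the labels says that the samples were separate cultures, so p-values measure the spread between these samples, which may be technical.

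Counts on genes were between 18622267 and 18828495 per library, and the 45 genes took 1.09% to 1.13% of them in untreated cells and 1.17% to 1.20% in VPA-treated cells. All normalized counts below are scaled by edgeR's TMM method to the mean library, and adjusted p-values are from its quasi-likelihood test over the 15298 genes that passed its filter on low counts. The kidney line's list of 6 marker genes had none at 0 and summed to 14105 to 14557 normalized counts in untreated cells and 12694 to 13286 in VPA-treated cells. Of the 6, VIM, which made up most of the sum, and CDH2 fell, while PAX2 (29.5 to 142), KRT8 (388 to 1003), LHX1 and KRT18 rose. Of 6 neuron markers, SYP is listed at 0 in every library, as the genes of its chromosome are here, and ELAVL3 and ELAVL4 had means of at most 2.24. The neuron markers together were between 189 and 205 in untreated and between 472 and 488 in VPA-treated cells. Lists for glia (85.8 to 93.3 against 243 to 279) and fibroblasts (437 to 495 against 1499 to 1666) were also higher in every VPA-treated library, as were blood cell markers (19.7 to 35.7 against 36.3 to 46.0). In untreated cells COL1A2, PTPRC, CD3E and HBB had means of 0. These lists move with the neuronal genes below, and their part in the results was not tested. In such bulk samples a larger share of cells of a type and more RNA per cell cannot be told apart.

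Of the 45 genes, 42 passed the filter, and each of the 42 had at least 10 counts in every library, so that none passed through the VPA-treated libraries alone. Genes were called at the thresholds of the study, namely a log2 fold change of 1 or more in either direction together with an adjusted p below 0.05. At these thresholds 12 of the 42 were up-regulated, where 12% of all tested genes were, and 0 were down-regulated by edgeR, against 0.503% of all. The 7 genes lower at an unadjusted p under 0.05 all fell by less than the fold threshold, and DESeq2 also called 0 down. At the adjusted p alone, 24 of the 42 were higher in VPA-treated cells (background 32.9%), 7 were lower (background 30%) and 11 passed in neither direction. The median log2 fold change was 0.51 over the 42 genes and 0.0058 over all genes tested.

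**Figure D1:**
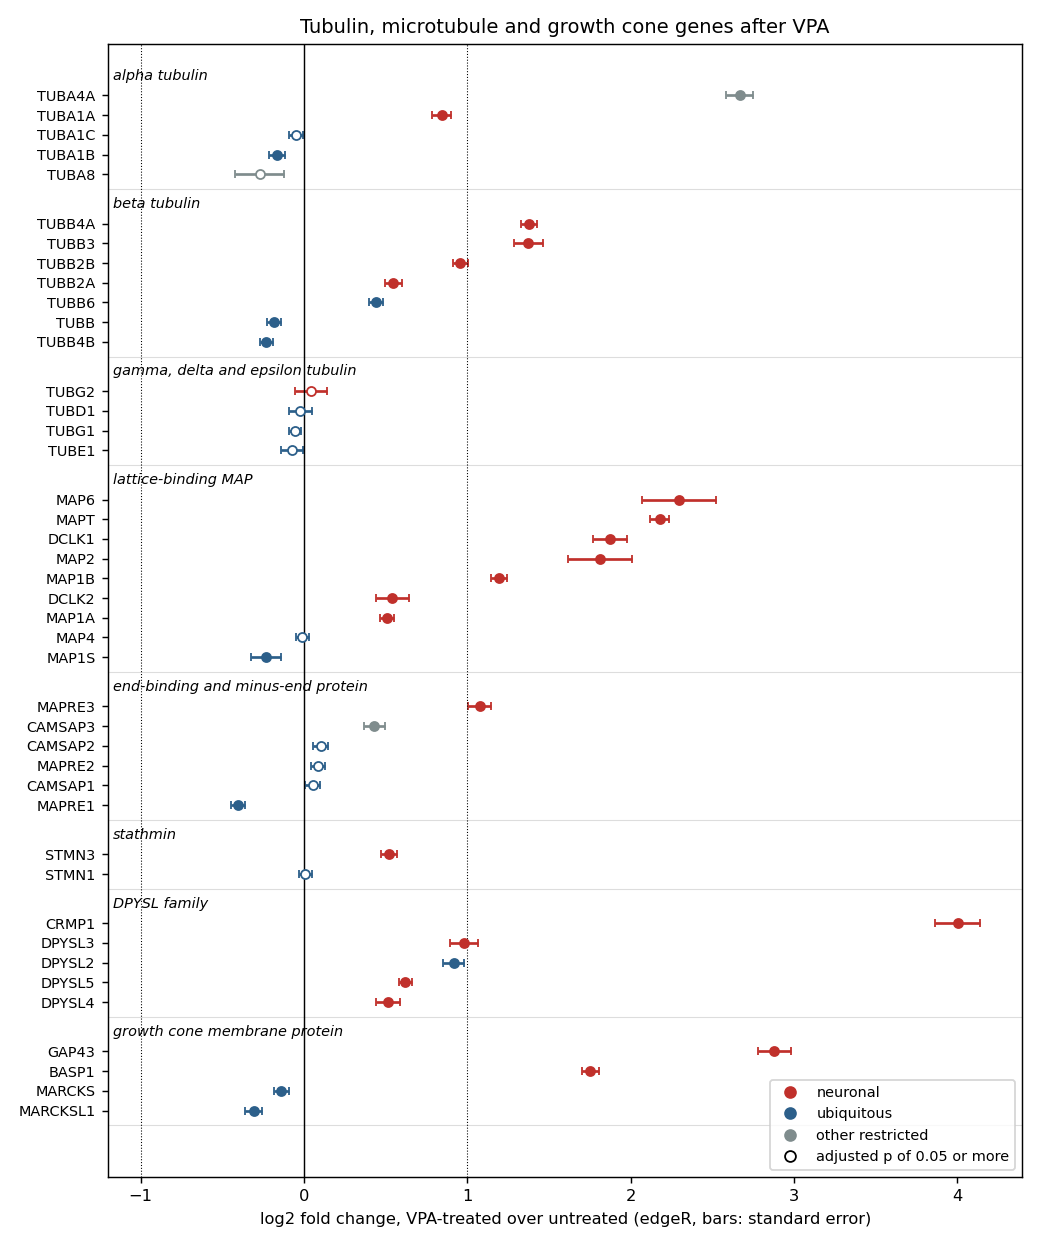
Log2 fold change (VPA-treated over untreated, x axis) of the 42 tested genes, grouped by role, with bars for the standard error. Filled points passed an adjusted p of 0.05 and dotted lines mark a log2 fold change of 1 in either direction. Neuronal genes lie to the right of 0, with TUBG2 close to it. Ubiquitous ones lie around 0, except DPYSL2 and TUBB6, which lie to the right among the neuronal genes.

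By class, the calls fell unevenly. Among the 21 tested neuronal genes 11 were up-regulated, 20 were higher at the adjusted p and 0 were lower, with a median log2 fold change of 1.08. By DESeq2, which also tested STMN2, 21 were higher and 0 lower. Among the 18 ubiquitous genes 0 were up-regulated by edgeR or by DESeq2, 4 were higher at an unadjusted p under 0.05, 2 were higher at the adjusted p and 7 were lower, with a median of -0.052. That median depended on the scaling and was 0.013 with upper quartile scaling, 0.080 with library totals and 0.21 with ribosomal protein genes, where the medians of all genes were 0.071, 0.14 and 0.27. Of the 42 genes 4, 3 and 1 were then lower at the adjusted p, against 22.3%, 15.5% and 5.8% of all genes. Every VPA-treated library lay above every untreated library for 20 neuronal genes and for 3 ubiquitous ones (background 34.8%), and below for 0 and 6 (background 31%).

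Neuronal genes had fewer counts in untreated cells than ubiquitous ones, and among all genes up-regulation was called more often at low counts. It was called for 32.8% of all tested genes with an untreated mean under 100 normalized counts and for all 5 neuronal genes there (MAP2, MAP6, CRMP1, GAP43 and DCLK1). Between 100 and 1000 it was called for 5.11% of all tested genes, 5 of 10 neuronal genes and 0 of 4 ubiquitous genes. Between 1000 and 10000 the background was 0.295%, and 1 of 6 neuronal genes (MAP1B) and 0 of 10 ubiquitous ones were called, although all 6 neuronal genes in that range were higher at the adjusted p. At 10000 or more, 0 of 254 tested genes were called, among them TUBB, TUBA1B, TUBB4B and TUBA1C.

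**Figure D2:**
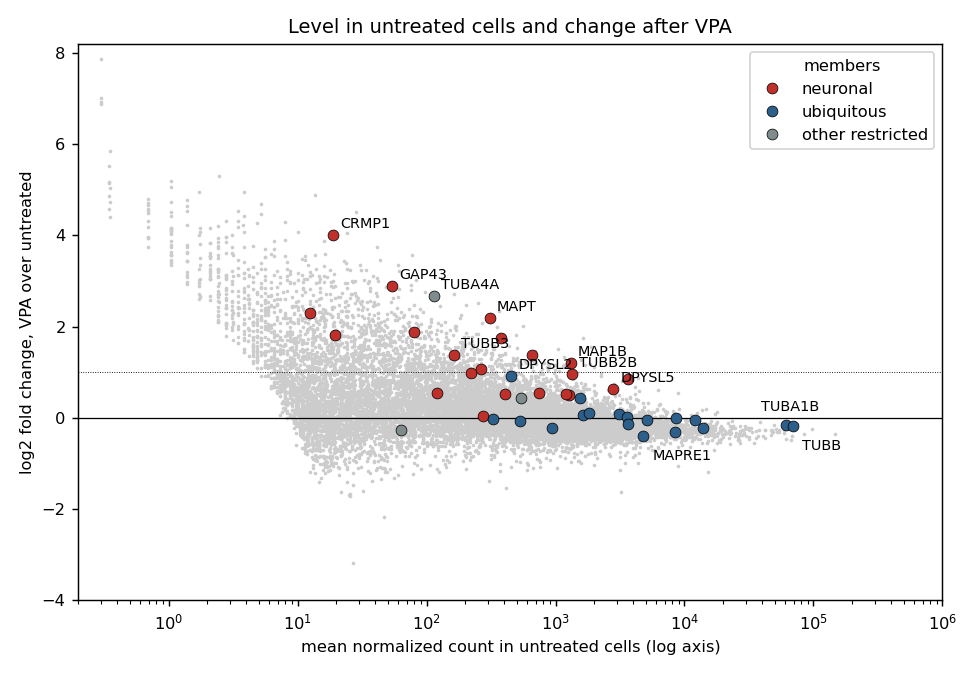
Mean normalized count in untreated cells (x axis, log scale, means under 0.3 drawn at 0.3) against log2 fold change after VPA (y axis) for all tested genes in grey and the 42 genes in colour. The dotted line marks a log2 fold change of 1. TUBA1B and TUBB stand at the far right just under 0, and CRMP1 stands highest among the coloured points.

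To show the start regions of genes that moved in opposite directions, 4 promoter sequences are printed, the 250 bases before the start of transcription in RefSeq on GRCh38.p14, 5′ to 3′ on the gene's strand. GAP43 (chr3:115623260-115623509, plus strand) and BASP1 (chr5:17216573-17216822, plus strand) were up-regulated, and TUBB4B (chr9:137241037-137241286, plus strand) and MARCKSL1 (chr1:32336234-32336483, minus strand) fell on the TMM scale. With ribosomal protein scaling neither TUBB4B nor MARCKSL1 was lower at the adjusted p. Capitals mark matches, on either strand, to the GC box GGGCGG, the CCAAT box, the TATA box TATAAA, the E-box CAGCTG and GGACAG, the right part of the site of the repressor REST. The BASP1 stretch lies within exons of the antisense gene BASP1-AS1, and neighbouring GC boxes of MARCKSL1 share bases.
GAP43: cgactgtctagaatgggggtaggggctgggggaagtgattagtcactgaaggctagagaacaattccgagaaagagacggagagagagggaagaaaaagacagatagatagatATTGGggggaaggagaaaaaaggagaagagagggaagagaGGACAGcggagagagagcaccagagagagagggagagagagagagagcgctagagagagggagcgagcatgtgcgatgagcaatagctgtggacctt
BASP1: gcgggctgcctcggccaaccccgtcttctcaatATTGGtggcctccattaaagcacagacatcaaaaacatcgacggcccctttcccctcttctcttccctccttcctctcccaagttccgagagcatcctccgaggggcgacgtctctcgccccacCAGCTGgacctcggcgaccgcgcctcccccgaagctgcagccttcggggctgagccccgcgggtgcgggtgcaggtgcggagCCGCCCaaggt
TUBB4B: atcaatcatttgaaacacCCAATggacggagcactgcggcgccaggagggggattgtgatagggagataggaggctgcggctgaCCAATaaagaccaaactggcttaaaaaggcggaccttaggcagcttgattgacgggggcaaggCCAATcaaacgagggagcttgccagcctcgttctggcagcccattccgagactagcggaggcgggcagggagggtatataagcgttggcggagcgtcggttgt
MARCKSL1: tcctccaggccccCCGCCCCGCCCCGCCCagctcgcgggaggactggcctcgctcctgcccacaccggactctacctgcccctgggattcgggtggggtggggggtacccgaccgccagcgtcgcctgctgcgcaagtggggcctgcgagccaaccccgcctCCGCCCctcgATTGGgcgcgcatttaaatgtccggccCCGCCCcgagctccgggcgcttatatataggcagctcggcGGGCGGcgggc
The GAP43 stretch held 1 CCAAT box and 1 GGACAG match and 0 GC boxes, with 7 CpG dinucleotides. BASP1 held 1 GC box, 1 CCAAT box and 1 E-box, with 21 CpG. TUBB4B held 3 CCAAT boxes, with 15 CpG, and MARCKSL1 6 GC boxes and 1 CCAAT box, with 28 CpG. TUBB2B, which rose, and MAPRE1, which fell, were scanned in the same way and are not printed. TUBB2B held 1 GC box and 1 CCAAT box, with 28 CpG. MAPRE1 held 5 GC boxes, 1 CCAAT box and 1 TATA box, with 35 CpG. Over windows of 300 bases (250 before to 50 after each start), which the RefSeq table held for 39 of the 45 genes in 61 windows, the GC box was in 66.7% of neuronal, 66.7% of ubiquitous and 65.1% of all tested genes' windows. CCAAT was in 36.4%, 50.0% and 34.1%, GGACAG in 24.2%, 16.7% and 20%, TATAAA in 9.1%, 4.2% and 6.4%, and CAGCTG in 12.1%, 12.5% and 17.3%. These are matches of letters, and no binding was measured.

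Beta-tubulin genes moved in both directions by class. TUBB3, the isotype long used to mark neurons (chr16:89921925-89936097, plus strand), had 177, 172 and 138 normalized counts without VPA and 435, 438 and 391 with it. The groups did not overlap, and the rise was 1.37 on the log2 scale (standard error 0.090, adjusted p = 1.94e-11). TUBB4A, a brain isotype (chr19:6494319-6502848, minus strand), went from 665, 627 and 674 to 1704, 1715 and 1688, a log2 fold change of 1.38 (standard error 0.049, adjusted p = 1.18e-15). Both were thus up-regulated by nearly the same fold from different levels. TUBB2B, abundant in the developing brain, rose from 1334 ± 28.2 to 2592 ± 123 (SD, n = 3), by 0.96, just under the fold threshold, and TUBB2A, its near copy, rose by 0.55 from 743 ± 5.55 to 1086 ± 9.11. Between these 2 genes reads are uncertain, since 55.6% of the 100-base stretches of TUBB2A transcripts and 48.7% of those of TUBB2B also occur in genes elsewhere.

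The ubiquitous beta isotypes were divided. TUBB, the main isotype of dividing cells (chr6:30720352-30725422, plus strand), had 67582, 70226 and 71111 normalized counts in untreated cells and 60386, 62186 and 61348 in VPA-treated cells. TUBB4B, found in most tissues and in cilia, had 13404, 13901 and 14480 against 11974, 11584 and 12075. Neither overlapped between groups, and the log2 fold changes were -0.18 for TUBB and -0.23 for TUBB4B (adjusted p = 0.00114 and 6.16e-05). Both were above 0 with ribosomal protein genes as the scale, at 0.079 and 0.034, where the median of all genes was 0.27. With library totals the call of TUBB was lost (-0.052, adjusted p = 0.274). TUBB6, a broadly expressed isotype, rose instead, from 1548 ± 49.5 to 2101 ± 66.0 (SD, n = 3, log2 fold change 0.44, adjusted p = 2.41e-08). TUBB1, the isotype of platelets, had 0 counts in all 6 libraries.

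Among alpha-tubulin genes TUBA4A, an isotype of brain, muscle and platelets (chr2:219249710-219254740, minus strand), showed the steepest rise. It had 98.3, 111 and 132 normalized counts in untreated cells and 736, 725 and 710 after VPA, a log2 fold change of 2.67 (standard error 0.084, adjusted p = 1.31e-16). Of its canonical exons 30.7% lie opposite those of STK16, and whether counting used the strand is not given in the sources used here, so reads of the 2 genes may not be told apart. TUBA1A, the main alpha isotype of young neurons, rose from 3319, 3580 and 4032 to 6398, 6282 and 6920, by 0.84 (standard error 0.059, adjusted p = 4.9e-09). TUBA1B, the ubiquitous alpha isotype, had 57261, 61599 and 64981 against 53730, 53550 and 56451 (log2 fold change -0.17, adjusted p = 0.00588). That call was lost with upper quartile scaling (-0.10, adjusted p = 0.0869) and library totals (-0.035, adjusted p = 0.530), and the value became 0.097 with ribosomal protein scaling. Exons of TUBA1B are covered to 72.7% by the antisense gene TUBA1B-AS1, which limits its counts in the same way, and 37.2% of its 100-base stretches and 18.1% of those of TUBA1A also occur in genes elsewhere. TUBA1C, also ubiquitous, was at 11996 ± 665 and 11600 ± 433 (SD, n = 3, adjusted p = 0.365), and TUBA8, an isotype of few tissues, at 63.6 ± 2.15 and 52.7 ± 5.85 (adjusted p = 0.121).

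To compare isotypes with each other, counts were divided by transcript length (the mean over GENCODE transcripts) and given as shares of the family's summed level per kb in each library. With 3 libraries against 3 the smallest p of a two-sided exact permutation test is 0.1, and each of the 12 isotypes compared reached it, with 0.1 after adjustment over the 12. The shares of one family depend on each other, since they add up to the whole. TUBB held 68.2% ± 0.207 of beta tubulin in untreated cells and 62.2% ± 0.724 in VPA-treated cells (SD, n = 3). TUBB4B went from 21.8% ± 0.287 to 19.2% ± 0.447. The share of TUBB4A was 2.52% ± 0.118 and then 6.76% ± 0.0609, that of TUBB3 0.344% ± 0.0518 and then 0.921% ± 0.0585. TUBB3 thus remained the smallest detected part of the beta-tubulin pool in both conditions. The 4 neuronal beta isotypes together held 5.33% ± 0.181 and 12.1% ± 0.237. The sizes and order of these shares depend on the length used. For TUBB4A the mean length was 734.1 bases where its canonical transcript has 2277, and for TUBB2B it was 2840.4 where the canonical has 1922. Before division by length TUBB2B had more normalized counts than TUBB4A in both conditions. In the alpha family TUBA1B went from 79.1% to 74.3%, TUBA1A from 3.72% ± 0.145 to 7.06% ± 0.141 and TUBA4A from 0.183% ± 0.0163 to 1.24% ± 0.0592. In total 8 of the 12 shares were higher in every VPA-treated library, or 7 with the longest transcript as the length. No background over other gene families was computed for such shares.

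**Figure D3:**
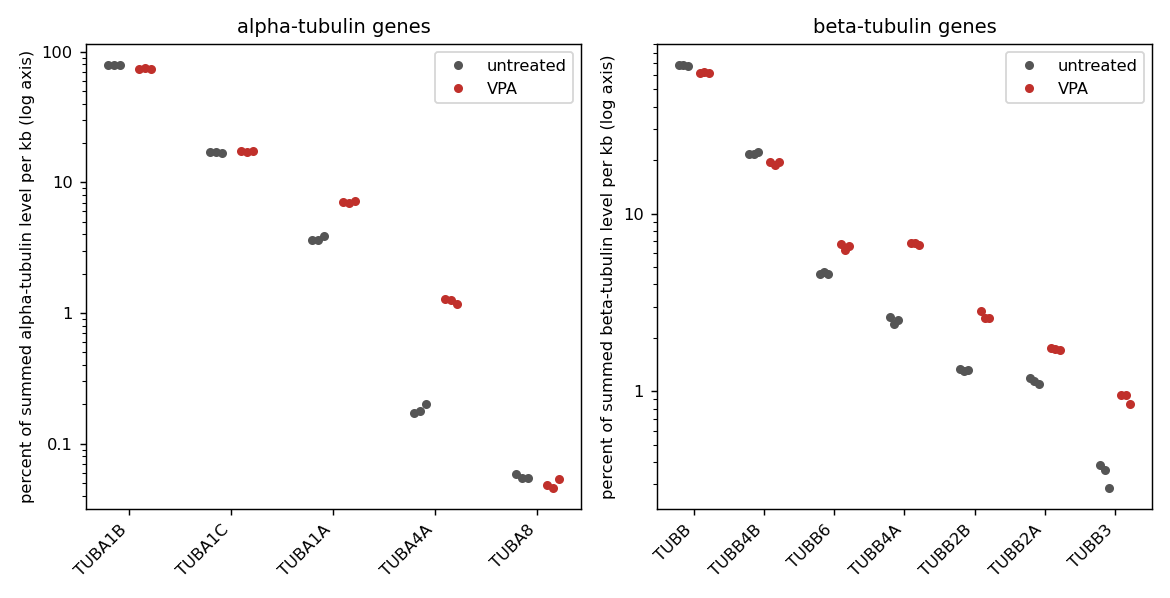
Share of each isotype in the summed level per kb of its family (y axis, percent, log scale), 1 point per library, alpha tubulin on the left and beta tubulin on the right. TUBB and TUBA1B hold most of each pool in both conditions, and the shares of TUBB3, TUBB4A, TUBA1A and TUBA4A lie higher in all 3 VPA-treated libraries.

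The summed family levels depended on the scale. Beta tubulin summed to 88010 ± 2403 normalized counts without VPA and 81086 ± 551 with it (SD, n = 3, exact permutation p = 0.1, the smallest possible), while as a share of all counts on genes (CPM) the groups overlapped, at 4490 and 4531 (p = 0.7 by the same exact test). Alpha tubulin summed to 77097 ± 4902 and 73487 ± 2390, with overlap (exact permutation p = 0.3). The neuronal genes together went from 15293 ± 299 to 29022 ± 256 normalized counts, 1.90 times as many.

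The tubulins that do not enter the lattice did not pass the test on the TMM scale. TUBG1 and TUBG2 encode gamma-tubulin, from which microtubules are nucleated, and TUBD1 and TUBE1 the delta- and epsilon-tubulin of centrioles. Their log2 fold changes were -0.056, 0.042, -0.023 and -0.071, with adjusted p between 0.206 and 0.801. With ribosomal protein scaling all 4 were higher at the adjusted p, by 0.21, 0.30, 0.24 and 0.19 (adjusted p between 6.93e-05 and 0.0162), where 59.1% of all genes were. On the TMM scale none of the 4 had an unadjusted p under 0.05 in edgeR or a call in DESeq2. TUBG2, the gamma isotype more abundant in brain, was the 1 neuronal gene that did not pass, with 280, 233 and 305 against 311, 284 and 248 normalized counts. TUBG1 and TUBG2 share 14.98% and 13.4% of their 100-base stretches with genes elsewhere.

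Proteins that bind along the lattice gave the most calls, with 5 of 9 up-regulated, against 12% of all tested genes, and a median log2 fold change of 1.19. All 5 were of the neuronal class. Of them MAP2, MAP6 and DCLK1 had untreated means under 100, where 32.8% of all tested genes were up-regulated. MAPT, the tau protein of axons (chr17:45894554-46028334, plus strand), had 295, 301 and 329 normalized counts in untreated cells and 1362, 1415 and 1414 in VPA-treated cells. The 2 groups lay far apart, and the log2 fold change was 2.18 (standard error 0.059, adjusted p = 1.5e-17). MAP2, the marker of dendrites, had 19.7, 24.1 and 14.7 against 67.0, 64.5 and 74.6, and rose by 1.81 (standard error 0.19, adjusted p = 4.89e-08). MAP6, which protects microtubules from cold, had 14.5, 11.5 and 11.5 against 51.7, 72.2 and 62.2, and rose by 2.30 (standard error 0.22, adjusted p = 1.26e-08). Both started from few counts, and their standard errors are the widest among the up-regulated genes. DCLK1, a doublecortin-like kinase, rose from 69.3, 79.5 and 89.1 to 299.7, 294 and 280.3, by 1.88 (adjusted p = 1.02e-12).

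MAP1B, a MAP of growing axons, was up-regulated from a higher level. It had 1354, 1315 and 1260 normalized counts without VPA and 2866, 3170 and 2949 with it, a log2 fold change of 1.19 (standard error 0.048, adjusted p = 6.46e-15). Its relative MAP1A, of mature neurons, rose by 0.51 (1281 ± 4.07 to 1822 ± 54.5) and DCLK2 by 0.54 (120 ± 6.65 to 174 ± 10.2). Their ubiquitous relatives had no call upwards. MAP4 had 8595 ± 99.8 and 8529 ± 253 (SD, n = 3, adjusted p = 0.823). MAP1S had 1079, 948 and 811 against 878, 780 and 757, groups that overlap, and a log2 fold change of -0.23 (adjusted p = 0.042), a call that was lost without untreated library 1 or 2 or VPA library 2 or 3 (adjusted p = 0.0806 to 0.110). MAP1S also lost the call with upper quartile scaling (-0.17, adjusted p = 0.117) and library totals (-0.10, adjusted p = 0.396). With ribosomal protein scaling its value was 0.028.

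**Figure D4:**
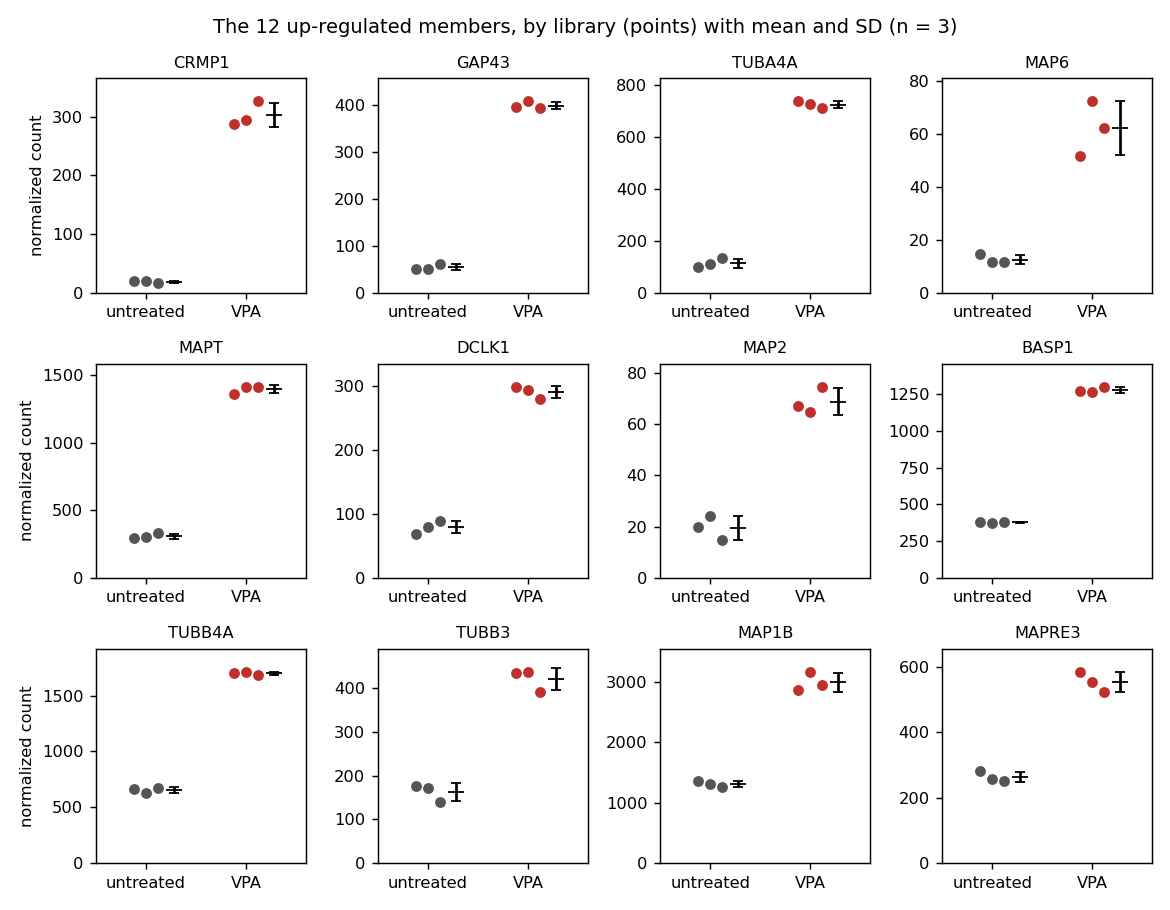
Normalized counts (y axis, from 0) of the 12 up-regulated genes in each library (points), with mean and SD (n = 3) beside them. In all 12 panels the VPA-treated libraries lie above the untreated ones without overlap.

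End-binding proteins ride on growing plus ends. MAPRE3, the neuronal EB3, had 280, 257 and 251 normalized counts in untreated cells and 585, 552 and 524 in VPA-treated cells, and rose by 1.08 on the log2 scale (standard error 0.072, adjusted p = 2.71e-11). MAPRE1, the ubiquitous EB1, moved the other way, from 4595, 4980 and 4787 to 3559, 3692 and 3607, a log2 fold change of -0.40 (standard error 0.041, adjusted p = 2.28e-08). It was the furthest fall among the 42 genes, and the 1 gene still lower at the adjusted p with ribosomal protein scaling. MAPRE2, or EB2, was at 3121 ± 58.8 and 3316 ± 147 (SD, n = 3, adjusted p = 0.0753).

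CAMSAP proteins cap free minus ends. CAMSAP3, which is mostly epithelial, rose from 538 ± 33.1 to 726 ± 47.7 (log2 fold change 0.43, adjusted p = 4.87e-06). CAMSAP1 was at 1648 ± 69.4 and 1709 ± 30.9 (adjusted p = 0.325) and CAMSAP2 at 1819 ± 69.1 and 1952 ± 40.8 (adjusted p = 0.0509). CAMSAP2 and MAPRE2 lay close to the threshold and passed it in several alternatives, among them the replicate number as a block (adjusted p = 0.00995 and 0.0143).

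Stathmins bind tubulin dimers and promote disassembly. STMN1, the form of dividing cells, had 3439, 3642 and 3633 normalized counts without VPA and 3414, 3703 and 3665 with it (log2 fold change 0.0092, adjusted p = 0.864). STMN3, a neuronal form, rose from 1217 ± 65.3 to 1743 ± 52.5 (SD, n = 3, log2 fold change 0.52, adjusted p = 7.23e-09). The other 2 neuronal stathmins failed the filter on low counts. STMN2, of growing axons, had 1, 1 and 0 raw counts in untreated libraries and 11, 7 and 4 in VPA-treated ones, and passed in DESeq2 (adjusted p = 0.0249) and in edgeR without the filter (adjusted p = 0.00051). STMN4 had 1, 0 and 1 against 2, 2 and 3 counts, which passed in neither (adjusted p = 0.438 and 0.318).

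All 5 genes of the DPYSL family rose, where 32.9% of all tested genes were higher at the adjusted p. CRMP1 (chr4:5820764-5893086, minus strand), found mainly in the nervous system, had 19.7, 19.9 and 16.8 normalized counts in untreated cells and 288, 295 and 326 after VPA. Its log2 fold change of 4.003 (standard error 0.14, adjusted p = 7.18e-16) was the steepest of the 42 genes and ranked 63 of the 15298 tested. The others moved less, from higher levels. DPYSL2, the broadly expressed CRMP2, had 451, 482 and 426 against 820, 910 and 836, a log2 fold change of 0.92 (standard error 0.063, adjusted p = 4.32e-11). DPYSL3, of young neurons, rose by 0.98 (221 ± 26.4 to 435 ± 25.1), DPYSL5 by 0.62 (2794 ± 63.3 to 4300 ± 101) and DPYSL4 by 0.51 (404 ± 46.9 to 577 ± 16.5). DPYSL5 had the most counts per kb of the family in both conditions, 1070 ± 24.2 and 1646 ± 38.7 (SD, n = 3), against 6.92 ± 0.636 and 112 ± 7.51 for CRMP1.

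The membrane proteins of the growth cone divided by class. GAP43, a main protein of growing axons (chr3:115623510-115721483, plus strand), had 49.7, 51.2 and 60.8 normalized counts in untreated cells and 394, 407 and 392 in VPA-treated cells. It rose by 2.88 (standard error 0.10, adjusted p = 1.04e-15) and ranked 248 of all tested genes. BASP1, a related brain protein (chr5:17216823-17276834, plus strand), had 383, 374 and 379 against 1270, 1262 and 1302, and rose by 1.75 (standard error 0.055, adjusted p = 1.07e-16). Each of these pairs of groups was tight and did not overlap. MARCKSL1, ubiquitous, fell from 9215, 7922 and 8160 to 6498, 7055 and 6887, by 0.31 on the log2 scale (adjusted p = 2.38e-05), a call that was lost with ribosomal protein scaling (-0.047, adjusted p = 0.527). MARCKS, its larger relative, which binds actin and calmodulin, had 3924, 3610 and 3348 against 3281, 3394 and 3217, which overlap, and a log2 fold change of -0.14 (adjusted p = 0.0179). That call was lost without untreated library 1 (adjusted p = 0.0945) or VPA library 3 (0.0721), and the value was 0.12 with ribosomal protein scaling. The call was also lost with upper quartile scaling (-0.073, adjusted p = 0.201) and library totals (-0.0068, adjusted p = 0.918).

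Whether a neuronal gene moved apart from its ubiquitous relative was tested directly, as the change in the log2 ratio of their counts within each library. A relative here is a gene of the same listed role, as MARCKS is for GAP43 and BASP1, and not always of the same gene family. Of 20 pairs 18 were measured, and the pairs of STMN2 and STMN4 were left out. The change was above 0 in 16 of 18 and the groups separated upwards in 14. For single genes rather than ratios, 34.8% of all tested genes separated upwards, and the share over other pairs of genes was not computed. In most pairs the neuronal gene had fewer untreated counts than its relative. Among all genes, up-regulation was called more often at low counts. Each separated pair had the smallest p that 3 against 3 allows, 0.1 by the exact permutation test and 0.1125 adjusted over 18 pairs, and several pairs share a denominator. CRMP1 gained on DPYSL2 by 3.06 ± 0.088 (standard error), GAP43 on MARCKS by 3.01 ± 0.15 and MAPT on MAP4 by 2.19 ± 0.059. TUBB4A gained on TUBB4B by 1.61 ± 0.047, TUBB3 on TUBB by 1.56 ± 0.14, MAPRE3 on MAPRE1 by 1.48 ± 0.094 and TUBA1A on TUBA1B by 1.01 ± 0.037. A smaller gain was that of STMN3 on STMN1, 0.51 ± 0.092.

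Not all pairs followed this order. DPYSL4 and DPYSL5 lost against DPYSL2, with changes of -0.40 ± 0.10 and -0.30 ± 0.083 (standard error) and every VPA-treated library below the untreated ones. DPYSL2, classed as ubiquitous, had the higher fold change in both pairs. DPYSL3 against DPYSL2 changed by 0.067 ± 0.12 (exact permutation p = 0.7) and TUBG2 against TUBG1 by 0.10 ± 0.14 (exact permutation p = 0.6), and in both the groups overlapped.

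**Figure D5:**
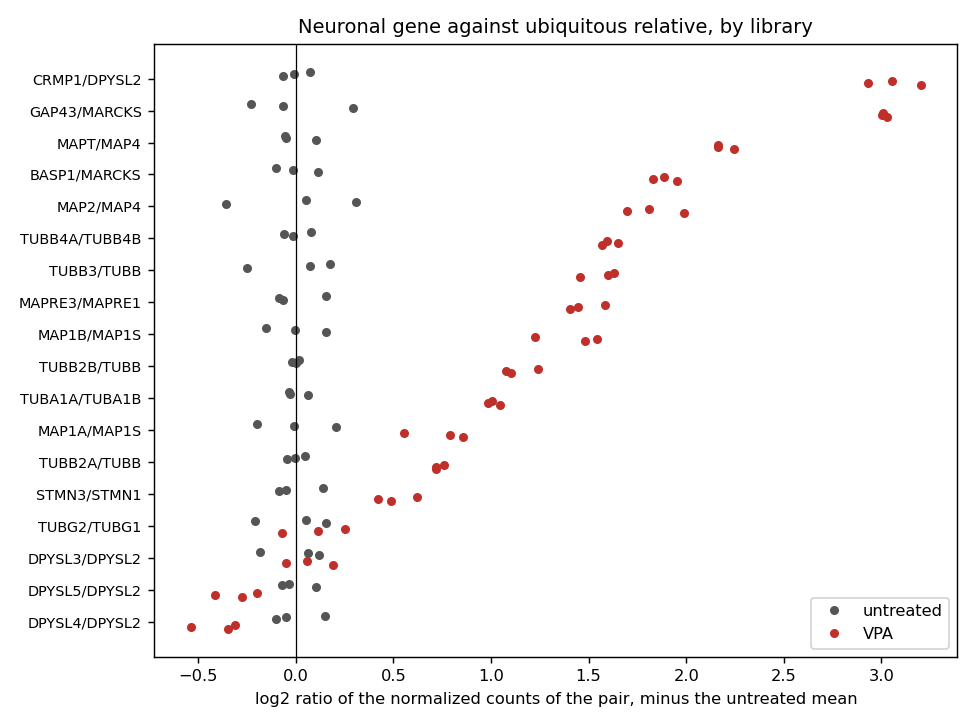
Log2 ratio of a neuronal gene's count to that of its ubiquitous relative in each library, minus the untreated mean of the pair (x axis), for 18 pairs. The VPA-treated libraries lie above the untreated ones in 14 pairs, overlap them in TUBG2/TUBG1 and DPYSL3/DPYSL2, and lie below in DPYSL5/DPYSL2 and DPYSL4/DPYSL2.

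Beyond the 45 genes, 111 further genes of the microtubule system were listed by role, and 93 of them passed the filter. Of the 93, 14 were up-regulated and 41 were higher at the adjusted p, 24 were lower, and 28 passed in neither direction, with a median log2 fold change of 0.11. Over all tested genes the shares were 12% up-regulated, 32.9% higher and 30% lower. By edgeR and by DESeq2 0 were down-regulated, and 29 were lower at an unadjusted p under 0.05. Of the 14 up-regulated genes, 10 were among 35 other microtubule-binding proteins, of which 24 were higher. Among those 10, the 4 of smallest p were EML6 (180 ± 5.91 to 570 ± 10.9 normalized counts, log2 fold change 1.66), NAV2 (1.55), TACC2 (1.48) and CLIP2 (1.29). CDK5R2, a neuronal activator of the kinase CDK5, rose by 2.66 from 6.27 ± 2.11 to 40.3 ± 1.61. Of the 9 severing enzymes KATNAL2 (1.08) and FIGNL2 (2.89) were up-regulated, and of 18 tubulin modifying enzymes TTLL6 (2.98), a polyglutamylase.

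The remaining lists held few genes, to be set against 32.9% of all tested genes higher and 30% lower. In the gamma-tubulin complex 1 of 9 genes was higher and 5 were lower (median -0.17), among 7 folding cofactors 1 was higher and 3 were lower (median -0.031), and among 15 kinases and transport adaptors 3 were higher and 9 lower (median -0.13). These medians are smaller in size than the 0.27 by which ribosomal protein scaling placed the median of all genes above 0, and they were computed on the TMM scale alone. Of the 111 genes, 10 are listed at 0, including DCX, HDAC6, MAP7D2 and MAP7D3, which lie on the X chromosome, where every gene is at 0 in these files.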

How the data were processed

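RNA-seq of 3 untreated and 3 VPA-treated HEK293T libraries was analysed. The authors removed adapters and poor reads with SOAPnuke, mapped the rest on hg38 by STAR 2.7.10b and counted them per gene with HTSeq 2.0.1 (versions per the submitters' processing notes), and the deposited values are raw counts without normalization. Which annotation and strand option the counting used is not given in the sources used here. The 5 summary lines that name no gene were left out. Reads off any gene were 6.80% to 7.69% of those listed.

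The test was edgeR 4.0.16 under R 4.3.3 (TMM, filterByExpr with a count minimum of 10, robust quasi-likelihood fit, prior count 0.125, Benjamini-Hochberg adjustment over 15298 genes). The biological coefficient of variation was 3.83%, and libraries of a condition differed by more than sampling noise (chi-square per gene 1.62 to 4.80). Shares and ratios were tested by exact permutation over samples, with a pseudocount of 0.5 in the ratios. On simulated counts edgeR recovered 200 of 200 changed genes over 15189 genes with 0 false calls, and DESeq2 1.42.0 recovered 198 over 21517. Recovery was counted over all changed genes together, and how it depends on the size of the fold change was not tested. In the data edgeR called 1833 genes up and 77 down. How recovery and false calls depend on the number of changed genes, or on their direction, was not tested.

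The members, classes and lists were chosen with earlier results of these data known. All 45 members could be named. From each further list the called genes, at most 4 per direction by smallest p, could be named, as could marker genes. HDAC6, DCX, MAP7D2 and MAP7D3 were named after their values were seen. Coordinates and promoters are from RefSeq on GRCh38.p14, transcript lengths from GENCODE 44. The alternatives were DESeq2, other scalings, filters, thresholds, a replicate block and leaving out each library.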

Additional observations from a re-analysis of the deposited data

How the results depend on the processing

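The 12 up-regulated genes stayed at or above a log2 fold change of 1 in all 180 comparisons with alternatives. Of 630 comparisons over 42 genes, 565 kept their direction and their side of an adjusted p of 0.05. Up-regulated genes numbered 13 with DESeq2 (10.1% of all genes), 14, 15 and 16 with upper quartile, library total and ribosomal protein scaling (13%, 13.9% and 16.3% of all), 11 with glmTreat (7.51% of all) and 12 to 13 without single libraries. Scaling moved the median of all genes from 0.0058 to 0.14 with library totals and 0.27 with ribosomal protein genes. Genes lower at the adjusted p then numbered 4 (upper quartile), 3 (library totals) and 1 (ribosomal), against 22.3%, 15.5% and 5.8% of all genes, while 27, 29 and 34 were higher, against 38%, 43.9% and 59.1%. The lower genes numbered 5 to 7 without single libraries, and 1 ubiquitous gene (DPYSL2) was up-regulated with library totals and 1 with ribosomal scaling.

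Of 30 values of single genes that turned sign, 6 passed an adjusted p of 0.05, those of TUBA1C, TUBG1, TUBD1, TUBE1 and MAP4 with ribosomal scaling and of MAP4 with library totals. With ribosomal scaling they were 0.097 (TUBA1B), 0.22 (TUBA1C), 0.079 (TUBB), 0.034 (TUBB4B), 0.21 (TUBG1), 0.24 (TUBD1), 0.19 (TUBE1), 0.028 (MAP1S), 0.25 (MAP4) and 0.12 (MARCKS). With library totals they were 0.084 (TUBA1C), 0.076 (TUBG1), 0.11 (TUBD1), 0.060 (TUBE1) and 0.12 (MAP4), and with upper quartile scaling 0.017 (TUBA1C), 0.0098 (TUBG1), 0.043 (TUBD1) and 0.054 (MAP4). MAP4 was 0.011 with at least 10 counts in every library and STMN1 -0.015 with DESeq2, -0.0046 with its size factors and -0.012 without a filter. Leaving out single libraries turned 6 genes or pairs at least once each. The ranges were -0.067 to 0.12 (TUBG2), -0.064 to 0.0046 (TUBD1), -0.036 to 0.0058 (MAP4), -0.023 to 0.044 (STMN1), and for the pairs -0.0046 to 0.18 (TUBG2/TUBG1) and -0.025 to 0.13 (DPYSL3/DPYSL2).

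Same-numbered libraries deviated together with correlations of 0.13, 0.018 and 0.071, against -0.098 to 0.031 for libraries of different numbers. All of these are small, and whether the numbers pair the libraries was not tested. The main test treated them as unpaired. With the replicate block 12 genes were up-regulated (12% of all genes) and 26 were higher (35% of all). Depth limits STMN2 and STMN4, whose few counts leave a wide error.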
